A study of Sus scrofa with 6 samples.

Results

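The subject is the set of contractile genes of slow muscle fibres, 10 genes listed by name and looked up in a table of 25322 Ensembl pig gene IDs through the current Ensembl symbol. Only 4 of the 10 were matched to a row. They are TNNC1, TNNI1 and TNNT1, the slow forms of troponin C, I and T, and MYL3, the essential light chain of slow myosin. The other 6 are MYL2 (regulatory light chain of slow myosin), MYL6B (an essential light chain), TPM3 (slow tropomyosin), ATP2A2 (calcium pump of the slow fibre reticulum), MYOZ2 (a Z-disc protein) and CASQ2 (calcium store protein). Of these, 5 carry current IDs that matched no row and TPM3 had no ID in the name table, so their levels are not analysed here.

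RNA came from the longissimus dorsi, a large back muscle, of 6 healthy female pigs of the Tibetan breed, with 1 library per animal. The low altitude group was 3 pigs of the Chengdu plain (mean altitude 500 m), fed daily under experimental conditions and bred from Tibetan pigs that had lived in the lowland for generations. The high altitude group was 3 free-ranging pigs at an average of 4000 m in the Tibetan highland. Altitude cannot be told apart from feeding, housing, place or the history of the lowland line. Age was not given in the labels. The series is titled as a study of acclimation to low altitude.

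Skeletal muscle fibres contract slowly or quickly depending on which copies of the contractile proteins they make. Troponin sits on the thin filament, where its C subunit binds calcium, its I subunit holds back the filament at rest and its T subunit ties the complex to tropomyosin; slow and fast fibres use separate genes for each subunit. The essential light chain wraps the lever arm of myosin. The pig back muscle is known as a mainly fast muscle, and TNNC1 and MYL3 are also the forms found in heart ventricle.

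Levels are given as FPKM, mapped fragments scaled for gene length and library size, a unit that can be set side by side between genes. The FPKM totals of the libraries were 506611 to 566907 at low and 526368 to 571855 at high altitude. FPKM holds no read counts, so absolute depth and counting error are unknown. The spacing of the lowest values gave relative depths of 0.965, 1.00 and 0.882 in low altitude libraries 1, 2 and 3 and of 1.12, 0.859 and 1.22 in high altitude libraries 1, 2 and 3. These are rough estimates from the most common ratio between libraries of values under 0.15 FPKM. The share of ratios close to the most common one was as low as 0.126. Of the 6 general markers of skeletal muscle that were matched, nebulin (NEB) was at 384 to 412 FPKM at low and 323 to 354 at high altitude and the calcium channel subunit CACNA1S at 91.9 to 118 and 103 to 122. Others varied more. DES, desmin, was at 1384 to 1684 FPKM at low altitude and at 2882, 912 and 1311 FPKM in high altitude libraries 1, 2 and 3, with the same extreme libraries as the slow troponin genes. The muscle transcription factor MYOD1 was at 6.51 to 14.4 FPKM at low and 12.1 to 20.5 FPKM at high altitude. MYF6, another such factor, was at 157 to 335 FPKM at low and 48.8 to 51.5 FPKM at high altitude, with no overlap (log2 difference 2.06, adjusted p = 0.0585 in the limma test across all tested genes). ACTA1, skeletal actin, had 35618 FPKM in low altitude library 3 and 34167.5 FPKM in high altitude library 2 but a 0 in the other 4 libraries. An exact 0 in the table can therefore be a failed estimate. None of the 4 slow fibre genes was listed at 0 in any library.

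TNNC1, the calcium sensor of slow troponin, was the most abundant of the 4, with a mean level that ranked at position 32 among all genes of the table. It was at 1219, 1806 and 1228 FPKM in low altitude libraries 1, 2 and 3 and at 4891, 952 and 2609 FPKM in high altitude libraries 1, 2 and 3. The low altitude values lie inside the range of the high altitude values, whose library 1 was the highest of the 6 and library 2 the lowest. The highest value was 1.48 times the lowest at low altitude and 5.14 times at high altitude.

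TNNI1, the inhibitory subunit, was at 650.2, 879.5 and 599 FPKM at low altitude and at 2161, 563 and 1304 FPKM at high altitude. TNNT1, the tropomyosin-binding subunit, was at 788, 1349 and 839.8 FPKM at low altitude and at 2251, 609 and 1668 FPKM at high altitude. In both genes high altitude library 1 was again the highest, library 3 of that group came next and library 2 was the lowest, so the groups overlap. TNNT1 ranked at position 46 and TNNI1 at position 56 by mean level.

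MYL3, the slow myosin light chain, was at 469, 672 and 440 FPKM at low altitude and at 1190.4, 627 and 1293 FPKM at high altitude, and ranked at position 67. Here high altitude library 3 was the highest, and high altitude library 2 lay between low altitude libraries 1 and 2, so this gene too overlapped between the groups. Its span at high altitude, 2.06 times, was narrower than that of the troponin genes, 3.70 to 5.14 times.

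**Figure D1:**
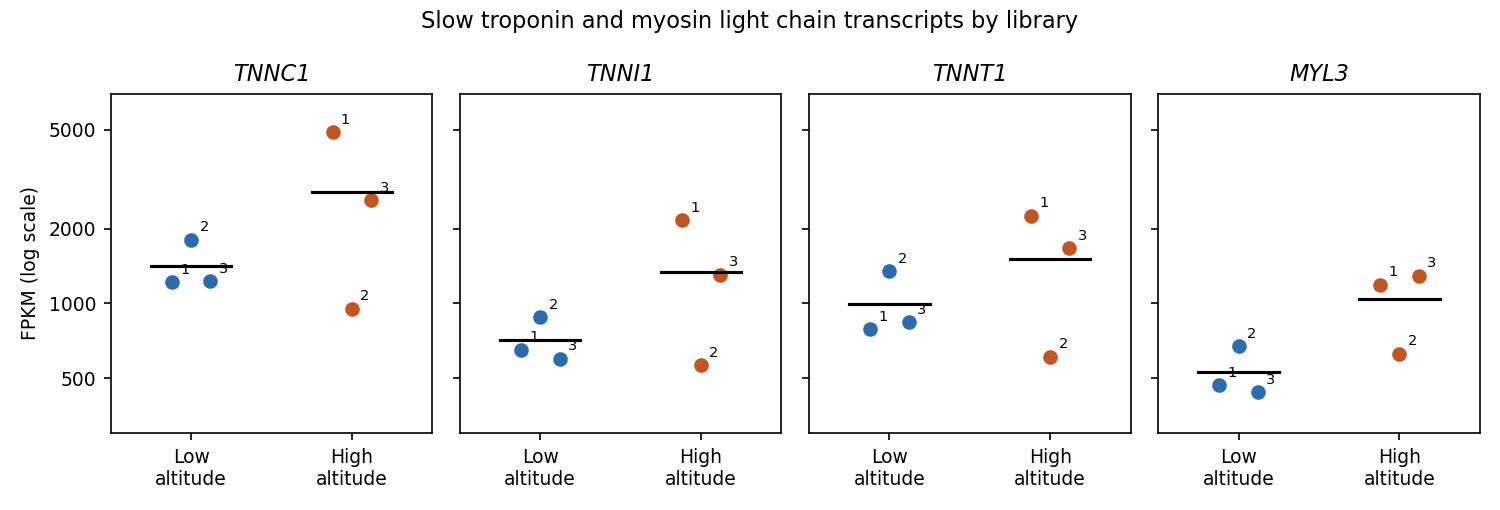
FPKM (log axis) of the 4 matched slow fibre genes in each library, low altitude left of high altitude; numbers mark the replicate and the bar is the group mean. High altitude library 1 reached 4891 FPKM of TNNC1 and high altitude library 2 only 952, with the 3 low altitude libraries between them.

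The spread among the high altitude animals set the slow troponin genes apart from most of the transcriptome, as a description with no test. On the log2(FPKM + 1) scale the SD of TNNC1 was 0.32 at low and 1.19 at high altitude, and 98.7% of the 10005 tested genes had a smaller SD at high altitude. The share was 97.8% for TNNI1, 97.9% for TNNT1 and 91.6% for MYL3. Among the 392 tested genes with a mean of at least 100 FPKM it was 96.2, 93.6, 94.1 and 86.0% for TNNC1, TNNI1, TNNT1 and MYL3. At low altitude the SDs of the 4 genes were 0.29 to 0.42, with 79.8 to 91.2% of tested genes below them.

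The troponin genes kept nearly the same order from library to library, and their ratios varied less than their levels. The order over the 6 libraries was identical in TNNC1 and TNNT1 (Spearman's rho of 1.0). The ratio of TNNC1 to TNNI1 FPKM was 1.88, 2.05 and 2.05 in low altitude libraries 1, 2 and 3 and 2.26, 1.69 and 2.001 in high altitude libraries 1, 2 and 3. It spanned 1.34 times over the 6 libraries, against the 5.14 times that TNNC1 itself spanned. The ratio of TNNC1 to TNNT1 was 1.34 to 1.55 at low and 1.56 to 2.17 at high altitude, with no overlap (not tested) and a span of 1.62 times. That of TNNI1 to TNNT1 was 0.652 to 0.825 and 0.782 to 0.96, a span of 1.47 times. MYL3 followed less closely. The ratio of TNNC1 to MYL3 was 2.60 to 2.79 at low altitude and 4.11, 1.52 and 2.02 in high altitude libraries 1, 2 and 3, a span of 2.70 times.

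Over the 6 libraries, Pearson's r on the log2(FPKM + 1) scale was computed for all 6 pairs of the 4 genes, with exact two-sided permutation tests and Benjamini-Hochberg adjustment over the pairs. For TNNC1 and TNNI1 r was 0.9945 (exact p = 0.00278, adjusted p = 0.00556) and Spearman's rho was 0.943 (exact p = 0.0167, adjusted p = 0.0333). For TNNC1 and TNNT1 r was 0.974 (exact p = 0.00139, adjusted p = 0.00556) and rho 1.0 (exact p = 0.00278, adjusted p = 0.0167). For TNNI1 and TNNT1 r was 0.96 (exact p = 0.00278, adjusted p = 0.00556) and rho 0.943 (exact p = 0.0167, adjusted p = 0.0333). Without high altitude libraries 1 and 3, r over the remaining 4 was still 0.962, 0.997 and 0.954 for these 3 pairs. Those 2 libraries lay farthest from the median of the first gene named in each pair. In TNNT1, high altitude library 2, which was kept, lay farther from the median than library 3.

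The pairs with MYL3 were weaker. With TNNI1 r was 0.881 (exact permutation p = 0.0264, adjusted p = 0.0396), with TNNC1 0.839 (exact permutation p = 0.0403, adjusted p = 0.0483) and with TNNT1 0.827 (exact permutation p = 0.0569, also adjusted). Spearman's rho was 0.771, 0.714 and 0.714 for the same pairs, and none passed (exact permutation p = 0.103, 0.136 and 0.136, adjusted p = 0.136 for each). Without high altitude libraries 1 and 3, r over the 4 libraries left was 0.492, 0.284 and 0.31. The r of these pairs over all libraries thus rests on those 2, which held the highest pair of values in each of the 4 genes. Without high altitude library 1 alone r was 0.891, 0.809 and 0.742. Taken as deviations from each group's own mean, the 6 pairs had r of 0.865 to 0.998, so the shared variation was not only a difference between group means. These deviations came mostly from the high altitude libraries. The SD was larger there in all 4 genes, for TNNC1 1.19 against 0.32 at low altitude. That these genes vary together in part of the libraries was known from earlier results of the same data. The permutation p-values of the 6 pairs therefore describe a pattern already seen and are no independent test of it.

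**Figure D2:**
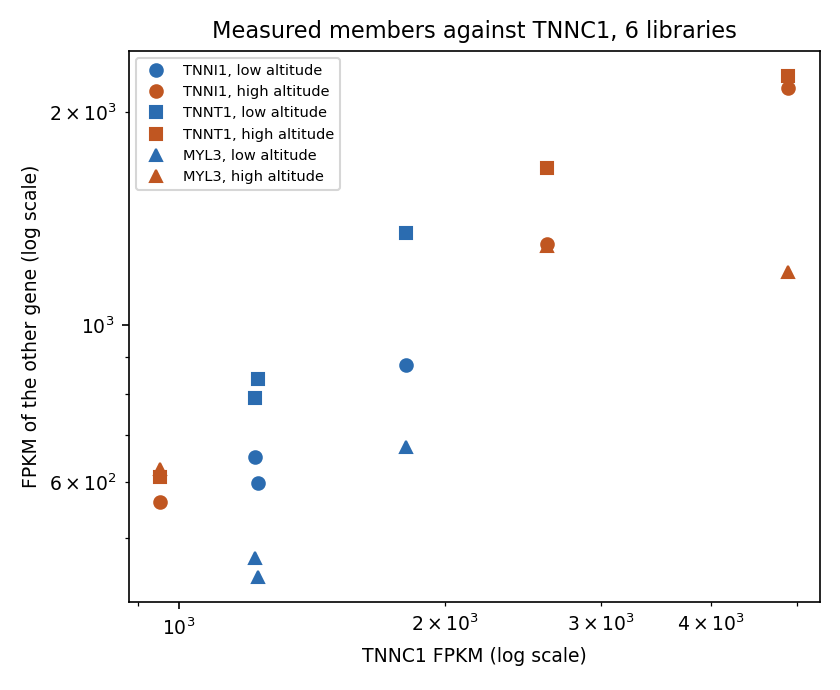
FPKM of TNNI1, TNNT1 and MYL3 against FPKM of TNNC1 (both axes log), 1 point per library and gene, colours for altitude. TNNI1 and TNNT1 climb with TNNC1 over the whole range, while MYL3 was lower at the TNNC1 maximum of 4891 FPKM (1190.4) than in high altitude library 3 (1293).

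Depth and the markers of other cell types also differed between libraries. Relative depth, as roughly estimated above, followed nearly the same order as the slow genes. High altitude libraries 3 and 1 were the deepest at 1.22 and 1.12 and high altitude library 2 the shallowest at 0.859. The 9 matched markers, of 10, of fibroblasts and matrix summed to 1099, 1207 and 787 FPKM in low altitude libraries 1, 2 and 3 and to 293, 1091 and 981 FPKM in high altitude libraries 1, 2 and 3, and none of the 9 was at 0. COL3A1, a fibrillar collagen, was at 345 to 568 FPKM at low altitude and at 37.9, 528 and 453 FPKM in high altitude libraries 1, 2 and 3. The 3 matched adipocyte markers of 6 summed to 12.03 to 33.1 FPKM at low altitude and to 5.45, 169.6 and 137 FPKM in high altitude libraries 1, 2 and 3, with no marker at 0. In high altitude libraries 2 and 3 most of this was SCD, a lipid enzyme, at 156 and 115 FPKM. SCD was at only 1.57 FPKM in high altitude library 1. The lipid droplet protein PLIN1 was at 1.90, 4.97 and 11.2 FPKM in high altitude libraries 1, 2 and 3. Sums at low and high altitude were 35.2 to 49.8 and 28.6 to 48.2 FPKM for 3 of 5 endothelial markers, 105.6 to 107.8 and 79.5 to 114 FPKM for 4 of 4 smooth muscle markers and 63.0 to 121 and 63.7 to 169 FPKM for 4 of 4 blood markers. Of the endothelial markers, KDR, a growth factor receptor, was at 1.90 to 4.75 FPKM at low and 5.74 to 7.69 FPKM at high altitude, with no overlap (log2 difference -1.09, unadjusted p = 0.0055, adjusted p = 0.303 in the limma test). The part of depth, connective tissue or fat in the slow gene levels was not tested. In whole muscle, more slow fibres and more slow gene RNA per fibre cannot be told apart.

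The difference between altitudes was tested with limma on the log2(FPKM + 1) scale, low minus high, with Benjamini-Hochberg adjustment over the 10005 tested genes. None of the 4 slow fibre genes passed an adjusted p of 0.05, a threshold passed by 0.23% of all tested genes. At an unadjusted p under 0.05 the limma test counted 1 of the 4, MYL3, where 9.42% of tested genes met the same mark. The groups were free of overlap in 0 of the 4, against 16.1% of tested genes. All 4 estimates were below 0 with a median of -0.73, beside a median of 0.04 over all tested genes, of which 42.3% were below 0.

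MYL3 averaged 527 ± 127 FPKM at low and 1037 ± 359 FPKM at high altitude (SD, n = 3 each), a ratio of 0.508. Its log2 fold change was -0.93 (SE 0.31, 95% interval -1.66 to -0.21, limma, unadjusted p = 0.0186, Benjamini-Hochberg adjusted p = 0.415). TNNC1 averaged 1418 ± 337 and 2817 ± 1978 FPKM at low and high altitude, a ratio of 0.503, with a log2 fold change of -0.72 (SE 0.54, 95% interval -2.001 to 0.56, limma, Benjamini-Hochberg adjusted p = 0.715). TNNI1 averaged 709 ± 149.6 and 1342 ± 799.8 FPKM (log2 difference -0.74, SE 0.46, adjusted p = 0.667 in the limma test) and TNNT1 992 ± 309.8 and 1509 ± 833 FPKM (-0.45, SE 0.48, adjusted p = 0.813). The intervals of the 3 troponin genes had lower ends of -2.001 to -1.57 and upper ends of 0.34 to 0.67 on the log2 scale. They hold both no difference and a several-fold one, and the data do not show that the groups are alike.

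High altitude libraries 1 and 2 pulled these estimates in opposite directions. Without high altitude library 1 the log2 fold changes of TNNC1, TNNI1 and TNNT1 were -0.18, -0.29 and -0.07 and that of MYL3 was -0.80. Without high altitude library 2 they were -1.36, -1.26, -1.01 and -1.26, all 4 with an unadjusted p under 0.05 and none past the adjusted threshold (limma, Benjamini-Hochberg adjusted p of 0.23 to 0.428).

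**Figure D3:**
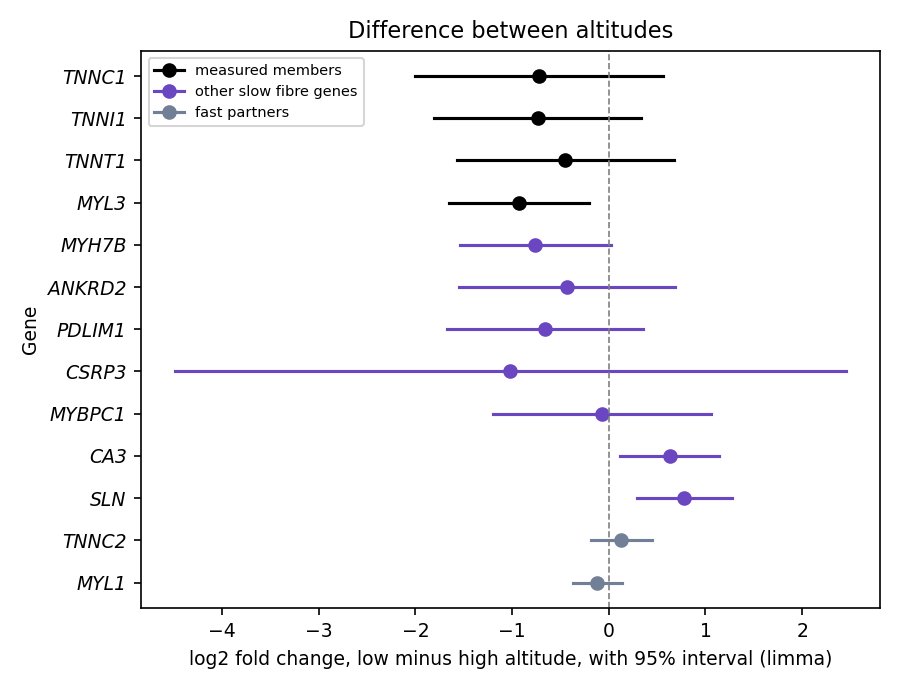
Log2 fold change, low minus high altitude, with the 95% interval from limma for the matched members (black), the other matched slow fibre genes (purple) and the fast partners (grey). The intervals of TNNC1, TNNI1 and TNNT1 cross 0, that of MYL3 runs from -1.66 to -0.21, and SLN and CA3 lie on the opposite side at 0.78 and 0.63.

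Setting each slow gene against its fast partner gives its weight in the muscle, and both partners were matched for 2 of 9 pairs. TNNC2, troponin C of fast fibres, was at 13918, 14340.4 and 13618 FPKM at low and at 12501, 14823 and 11186 FPKM at high altitude. TNNC1 thus made up 8.05, 11.2 and 8.27% of the FPKM of both troponin C genes in low altitude libraries 1, 2 and 3 and 28.1, 6.04 and 18.9% in high altitude libraries 1, 2 and 3. TNNC2 spanned 1.33 times over the 6 libraries, so the share moved mainly with the slow gene. The mean share was 9.17 ± 1.75% at low and 17.7 ± 11.1% at high altitude (SD, n = 3 each; difference -8.52 points, exact two-sided permutation p = 0.4, with 0.1 the smallest that 3 against 3 allows).

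MYL1, the essential light chain of fast myosin, spanned only 1.17 times, between 10100.3 and 10597 FPKM at low and between 10408 and 11850.2 FPKM at high altitude. MYL3 made up 4.24, 6.24 and 4.17% of the FPKM of both light chains in low altitude libraries 1, 2 and 3 and 9.13, 5.31 and 11.1% in high altitude libraries 1, 2 and 3. The means were 4.88 ± 1.17% at low and 8.50 ± 2.93% at high altitude (SD, n = 3 each; difference -3.61 points, exact two-sided permutation p = 0.2). In every library the fast form was the major one of both pairs. Leaving out single libraries moved the TNNC1 difference over a range of -14.4 points without high altitude library 2 to -3.30 points without high altitude library 1. For MYL3 the difference was -5.21 points without high altitude library 2 and -2.34 points without high altitude library 3, against the -3.61 points from all 6 libraries.

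**Figure D4:**
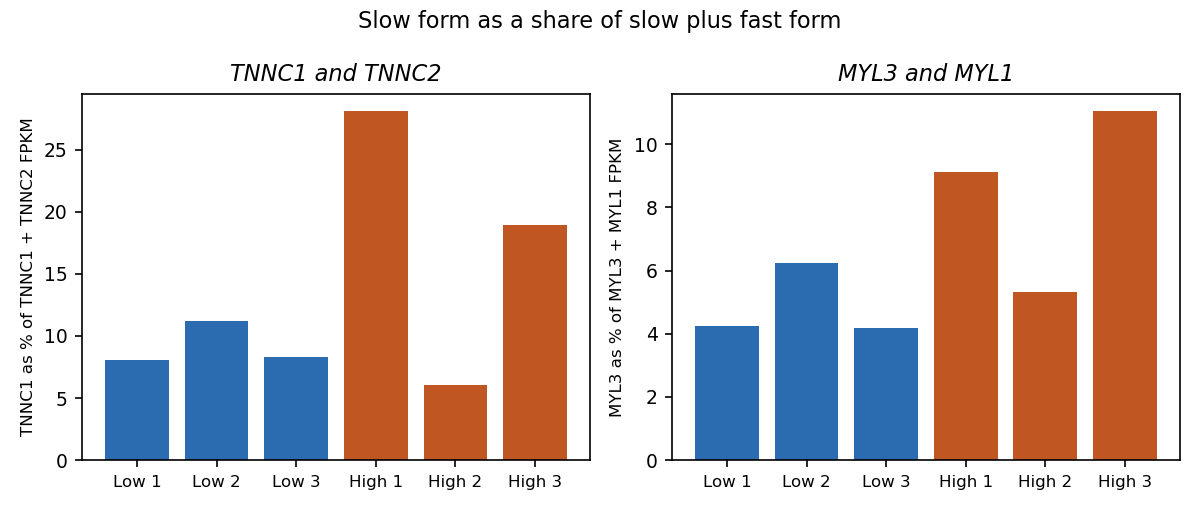
TNNC1 as a percentage of TNNC1 plus TNNC2 FPKM, and MYL3 as a percentage of MYL3 plus MYL1 FPKM, 1 bar per library with low altitude on the left. The share of TNNC1 was 8.05 to 11.2% in the low altitude libraries and 6.04 to 28.1% in the high altitude libraries.

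In other genes linked to slow fibres, 5 had their highest value in high altitude library 1, and SLN and CA3 had theirs at low altitude. That library was also the highest in 1004 of the 10005 tested genes. It was the highest in 2 of the 9 fast fibre genes and 5 of the 17 tested regulators of the slow programme, both described below. Of a list of 13 other slow fibre genes, 7 were matched and tested, and 0 passed limma's adjusted threshold. An unadjusted limma p under 0.05 was met by 2 of the 7, beside 9.42% of all tested genes. MYH7B, a myosin heavy chain of the slow type, was at 3.92, 5.83 and 4.11 FPKM at low and at 14.2, 4.98 and 8.14 FPKM at high altitude (log2 difference -0.76, adjusted p = 0.539 in the limma test). PDLIM1, a Z-disc adaptor, was at 13.6, 14.9 and 14.0 FPKM at low and at 50.2, 13.9 and 17.1 FPKM at high altitude, where library 1 alone stood apart. ANKRD2, a stretch-responsive protein of slow muscle, was at 36.3 to 50.7 FPKM at low and at 115, 26.5 and 58.5 FPKM at high altitude.

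CSRP3, the muscle LIM protein of the Z-disc, had the widest span of the list and was picked out after its values were seen. It was at 61.2, 75.3 and 69.0 FPKM at low altitude and at 957, 9.02 and 286 FPKM in high altitude libraries 1, 2 and 3. The high altitude values spanned 106 times, in the same order as the troponin genes, while the low altitude values spanned 1.23 times. MYBPC1, slow myosin-binding protein C, had the same extremes, with 403 to 577 FPKM at low altitude and 1028, 242 and 468 FPKM at high altitude.

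SLN and CA3 had estimates of the other sign. SLN, a small peptide that holds back the calcium pump, was at 6144, 7230.4 and 7577 FPKM at low and at 3035, 5161 and 4226 FPKM at high altitude, with no overlap (log2 fold change 0.78, SE 0.21, limma, unadjusted p = 0.0068, Benjamini-Hochberg adjusted p = 0.313). CA3, the carbonic anhydrase of slow fibres, was at 2252 to 2856 FPKM at low and 1239 to 2166 FPKM at high altitude, also with no overlap (0.63, SE 0.22, adjusted p = 0.438 in the same limma test). Neither passed the threshold.

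Among fast fibre genes, 9 of 15 were matched and tested, and 0 passed limma's adjusted threshold. An unadjusted limma p under 0.05 was met by 1 of the 9, beside 9.42% of all tested genes. MYBPC2, the fast form of myosin-binding protein C, was that gene, at 1482 to 1658 FPKM at low and 1002 to 1296 FPKM at high altitude (log2 difference 0.42, adjusted p = 0.431 in the limma test). MYOZ1, a Z-disc protein of fast fibres, was at 1778 to 1866 FPKM at low and 1827 to 2842 FPKM at high altitude, with its highest value in high altitude library 1. ATP2A1, the calcium pump of fast fibres, was at 1975 to 2569 FPKM at low altitude and at 1544, 2980 and 2135 FPKM in high altitude libraries 1, 2 and 3. In that pump gene high altitude library 1 was the lowest of the 6 and library 2 the highest, the reverse of the slow troponin genes. MYL11, the regulatory light chain of fast myosin, spanned 1.24 times over the libraries.

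**Figure D5:**
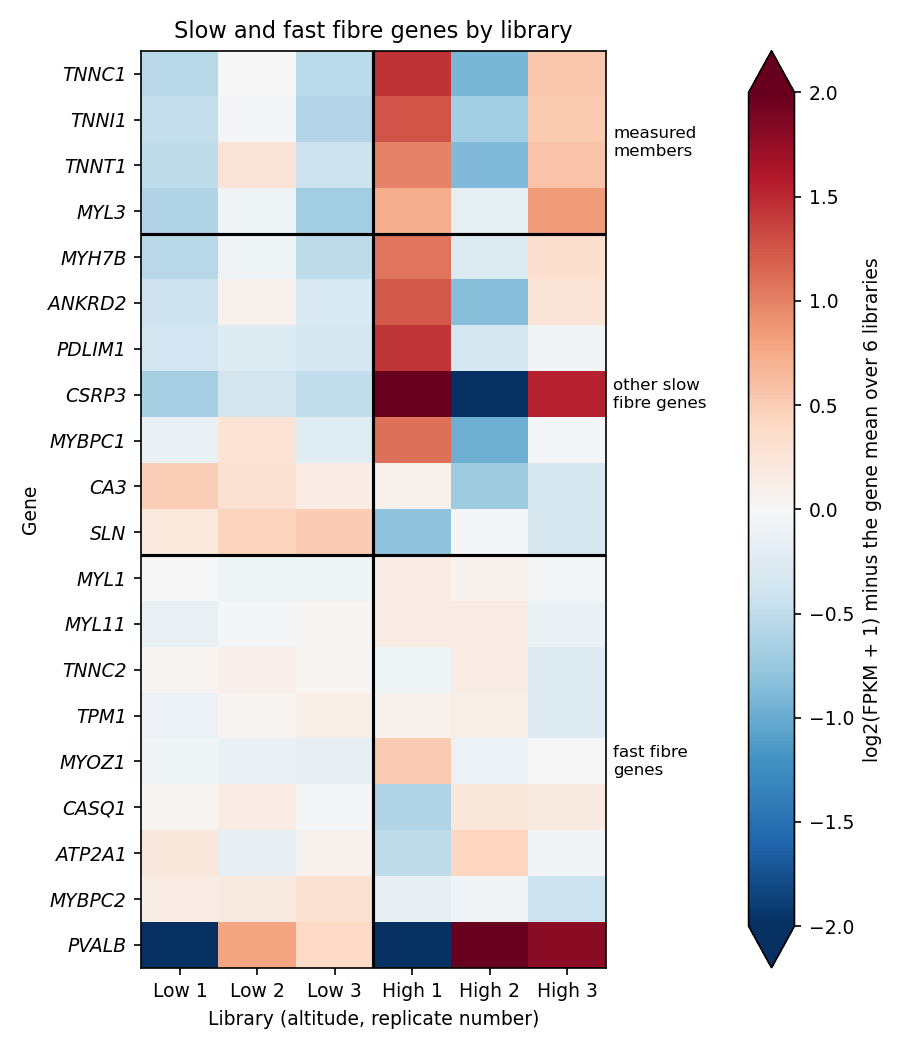
Log2(FPKM + 1) of each gene minus its mean over the 6 libraries (red above, blue below, colours saturate at 2 either way), for the matched members, the other matched slow fibre genes and the matched fast fibre genes. In high altitude library 1 the members and the other slow genes except SLN are red, CA3 only faintly, and in library 2 they are blue. The fast genes differ in direction, with MYOZ1 red and CASQ1 and ATP2A1 blue in library 1, and PVALB has their strongest colours.

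Heart muscle shares several of the slow genes, and its other markers were read for that reason. Of 10 heart markers 7 were matched. They summed to 478, 681 and 455 FPKM in low altitude libraries 1, 2 and 3 and to 1481, 220.0 and 677 FPKM in high altitude libraries 1, 2 and 3, nearly all of it from MYH6. NPPB, a heart hormone, was listed at 0 in every library, and GATA4, TBX5, MYL4 and RYR2 were below 0.4 FPKM throughout. TNNT2, cardiac troponin T, was at 2.31 to 9.93 FPKM at low and 0.886 to 5.66 FPKM at high altitude. MYH6, the alpha myosin heavy chain, was at 475, 671 and 452 FPKM at low and 1480, 217 and 671 FPKM at high altitude. Its reads can be shared with its close neighbour MYH7, the main slow myosin, which was not matched, so its level is uncertain.

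Regulators of the slow programme varied among themselves in how they followed the contractile genes. Over the 6 libraries, r to the mean standardised level of the 4 slow fibre genes ran from -0.83 for MEF2D, a muscle transcription factor, to 0.82 for ESRRA, a receptor of mitochondrial genes, as a description. Of 21 listed, 18 were matched and 17 tested, and 0 passed limma's adjusted threshold. An unadjusted limma p under 0.05 was met by 1 of the 17, beside 9.42% of all tested genes. That 1 was HDAC4, a deacetylase that represses the MEF2 factors of muscle, at 1.68 to 2.58 FPKM at low and 1.196 to 1.56 FPKM at high altitude (log2 difference 0.41, adjusted p = 0.476 in the limma test). NFATC1, a calcium-driven activator of slow genes, was at 3.18 to 4.81 and 2.21 to 3.55 FPKM at low and high altitude. TEAD1, a factor that binds muscle gene promoters, was at 34.3 to 40.4 and 23.8 to 34.5 FPKM, and the coactivator PPARGC1A at 2.85 to 4.01 and 2.16 to 3.05 FPKM. The 2 orders counted next were read from the 4 slow fibre genes, so their counts in those genes follow from that choice. High altitude library 1 was the highest and library 2 the lowest in 3 of the 4 slow fibre genes, 3 of the 7 other slow genes, 0 of the 9 fast genes, 0 of the 17 tested regulators and 3.11% of all tested genes. High altitude libraries 1 and 3 held the highest pair of values in 4 of the 4, 4 of the 7, 1 of the 9 and 0 of the 17, against 5.14% of all tested genes. PROX1, a factor of slow fibres below the level needed for the test, did have that pair on top, at 0.470 to 0.610 FPKM at low and 1.37, 0.510 and 0.930 FPKM at high altitude.

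The genes closest to the 4 in pattern were ranked by Pearson's r over the 6 libraries with the mean of the 4 genes' standardised log2(FPKM + 1) values, as a description with no p. Candidates were 3201 tested genes with a symbol and a mean of at least 5 FPKM. SYNPO2L, an actin-binding protein of the Z-disc, came first (r = 0.993), at 29.1, 36.3 and 28.3 FPKM at low and 52.6, 29.5 and 42.4 FPKM at high altitude. HSPB6, a small heat shock protein of muscle (r = 0.983), was at 15.1, 22.2 and 16.3 FPKM at low and 55.5, 13.2 and 31.0 FPKM at high altitude. HOMER2, a scaffold of calcium signalling (r = 0.956), was at 9.32 to 21.7 FPKM at low and 13.8 to 56.3 FPKM at high altitude.

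Also among the 8 closest were NME2, XPO1, MYH7B and UBXN6, with r of 0.954 to 0.990. A high r did not need a wide span. NME2, a nucleoside diphosphate kinase whose reads can be shared with its close copy NME1, ran between 119 and 152 FPKM, both in the high altitude group, 1.27 times. An r of at least 0.95 was reached by 0.3% of the 10001 tested genes outside the set.

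At the opposite end stood MYH3, the embryonic myosin heavy chain (r = -0.990), which was at 42.7, 27.6 and 46.2 FPKM at low and 10.9, 59.5 and 18.0 FPKM at high altitude. Its order over the libraries was the exact reverse of the order of the 4 genes' mean (rho of -1.0), and similar myosin genes nearby can share its reads. ARRB2, NCK2, DCAF8 and TFDP1 followed, with r of -0.989 to -0.977 and spans of 1.17 to 2.48 times. None of these closest and farthest genes passed the limma threshold between altitudes (Benjamini-Hochberg adjusted p of 0.539 to 0.878).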

How the data were processed

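The authors deposited FPKM values in 1 table of 25322 Ensembl gene IDs by 6 libraries. The submitters' processing notes name Cufflinks 2.2.1 and TopHat2 2.0.11 without saying what each did; the build and annotation were not given in the sources used here. Per the labels' protocols, RNA was extracted with TRIzol and made into dUTP strand-specific TruSeq libraries. Columns were matched by title, and a name table gave 11804 IDs a symbol.

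The 10005 genes that reached 1 FPKM in 3 or more libraries were fitted on log2(FPKM + 1) with limma 3.58.1 in R 4.3.3, with a mean trend, low minus high altitude, two-sided, with Benjamini-Hochberg adjustment at 0.05. The log scale with its pseudocount of 1 understates changes of low genes. Permutation tests and figures used Python 3.11.15, scipy 1.17.1 and matplotlib 3.10.9. The limma step was tested on simulated data.

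The members and lists were chosen with earlier results of these data known. Named were all matched members, their fast partners, up to 4 genes per list by unadjusted p, and the 8 most and 5 least alike, of which 1 is not reported here; others named (ANKRD2, CSRP3, MYBPC1, ATP2A1, MYL11, TNNT2, MYH6 and the markers) describe a list or were chosen after their values were seen. Alternatives were other pseudocounts, filters, scalings, variance models and weights, a replicate block, and single libraries left out; a fit that dropped the 107 genes with both a 0 and a value of 5 FPKM or more was added after seeing the data.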

Additional observations from a re-analysis of the deposited data

How the results depend on the processing

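Across 18 alternative fits the 4 slow fibre genes kept estimates below 0 in all 72 values. None passed an adjusted p of 0.05 (limma, Benjamini-Hochberg, the lowest 0.23). Changes of filter or variance model, the replicate block and the dropping of genes with a 0 cannot move an estimate. The 72 values also come from 4 correlated genes in the same 6 libraries, so their shared sign is no independent support. The median log2 fold change of the 4 genes, -0.73, was -0.355 with array weights and -1.26 to -0.235 with single libraries left out. Rescaling to a common total shifted the median of all genes to 0.102, and that of the 4 genes was then -0.65. The count of changed genes, 23, was 38 with array weights, 10 after quantile normalization, 9 after scaling by the median of ratios and 6 with no filter on low values, and 4 to 21 with single libraries left out. The pairs of slow genes past the adjusted exact permutation threshold, 5 of 6, were 3 after quantile normalization and 3 with Spearman's rho, the pairs with MYL3 being lost in both, 4 after rescaling to a common total, and 6 after median-of-ratios scaling and with deviations from group means. The cause of these shifts was not tested. Exact means here that every order of the libraries was counted. The slow genes spread more at high altitude, so the libraries are not fully exchangeable. The permutation p of the pairs is therefore only approximate, for the levels as for the deviations from group means.

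The replicate numbers do not pair the animals: deviations from group means of same-numbered libraries correlated at -0.0154, 0.0949 and -0.141, and no low altitude library correlated best with its own number. With the number as a replicate block 19 genes changed, none of them among the 4. The limits are 3 animals a group, no read counts, and 6 of the 10 listed genes unmatched.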

Other observations

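PVALB, parvalbumin, the calcium buffer of the fastest fibres, had the widest span of the fast fibre genes. It was at 1.84, 45.4 and 34.3 FPKM in low altitude libraries 1, 2 and 3 and at 1.15, 396 and 92.4 FPKM in high altitude libraries 1, 2 and 3, a span of 344 times. Its lowest value fell in the library with the highest slow troponin levels and its highest value in the library with the lowest. The other libraries did not keep to this reverse order. Low altitude library 1 was low both in PVALB (1.84 FPKM) and in TNNC1 (1219 FPKM). Over all libraries, r of PVALB to the mean standardised level of the slow fibre genes was -0.355, and without high altitude library 1 it was 0.148. No test was run on this pattern.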
